A study of Macaca fascicularis and Macaca mulatta and Papio anubis with 20 samples.

Results

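Smooth muscle spots of macaque dorsal root ganglia were the capture spots with the highest share of smooth muscle transcripts in their section. Visium slides carry a grid of barcoded spots that capture polyadenylated RNA from the section placed on them, and transcripts are counted by unique molecular identifiers (UMIs). Each spot takes up RNA from a patch of tissue in which cells of more than 1 type, or only part of a cell, may lie. Among spots under tissue with at least 500 UMIs, a score was taken as the UMIs of *ACTA2*, *TAGLN*, *CNN1* and *ACTG2* per 10000 UMIs of the spot. Class A held the spots whose score was above 0 and at or above the 95th percentile of their section, and class B held all other such spots. Class A came to 744 of 14724 analysed spots, or 5.05%, and class B to 13980, out of 21897 spots under tissue in these sections and 32952 in the whole series.

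The spots came from 15 sections of *Macaca fascicularis* in 4 groups, a female and a male title code in each of 2 labelled batches. Each title code was taken as 1 specimen, which the labels do not state, and the tests took these 4 specimens as replicates. The edgeR p-values rest on a spread estimated partly over all genes together. Very small ones therefore do not measure the spread of 1 gene between 4 specimens. All were fresh frozen ganglia, with no treatment, genotype or age in the labels. The male specimen of batch 2 gave 3 sections here and each of the others 4. Values per specimen are given below in a fixed order, the female and the male of batch 1, then the female and the male of batch 2.

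Smooth muscle cells form the wall of arteries, arterioles and larger veins and shorten when myosin pulls on actin filaments. *ACTA2* and *ACTG2* encode actins of such cells, *TAGLN* and *CNN1* encode actin-binding proteins, and myosin light chains, tropomyosins and filamins belong to the same machinery. In a sensory ganglion, vessels run in the capsule and between the neuronal cell bodies, and pericytes, fibroblasts and fibroblast-like perineurial cells carry parts of the same gene programme.

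Class A held 171, 234, 208 and 131 spots in the 4 specimens, and between 22 and 77 in a section. The score that a spot had to reach ranged from 4.24 UMIs per 10000 in section 1 of the male of batch 2 to 72.4 in section 1 of the female of batch 1. In the first of these sections the lowest class A spot scored 4.24 and the highest class B spot 4.22. In the second these scores were 76.5 and 71.4. The 4 genes gave 4831 UMIs in class A, and 113 class A spots had a single score UMI, 461 had at least 3, and 413 had UMIs of at least 2 of the 4 genes. These values chose the spots and are given as a description.

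The batches filled the class differently. In batch 1, 5.43% of 405 class A spots had a single score UMI and 76.5% had at least 3. In batch 2, 26.8% of 339 had a single one and 44.5% at least 3, and in the male of batch 2 alone 58.0% had a single one. *TAGLN* gave 46.3% of the score UMIs of class A in batch 1 and 78.3% in batch 2, and *ACTA2* 41.8% and 19.2%. *CNN1* and *ACTG2* gave 6.24% and 5.72% in batch 1 and 1.14% and 1.34% in batch 2. Most score UMIs of class A in batch 2 were thus those of *TAGLN*.

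**Figure D1:**
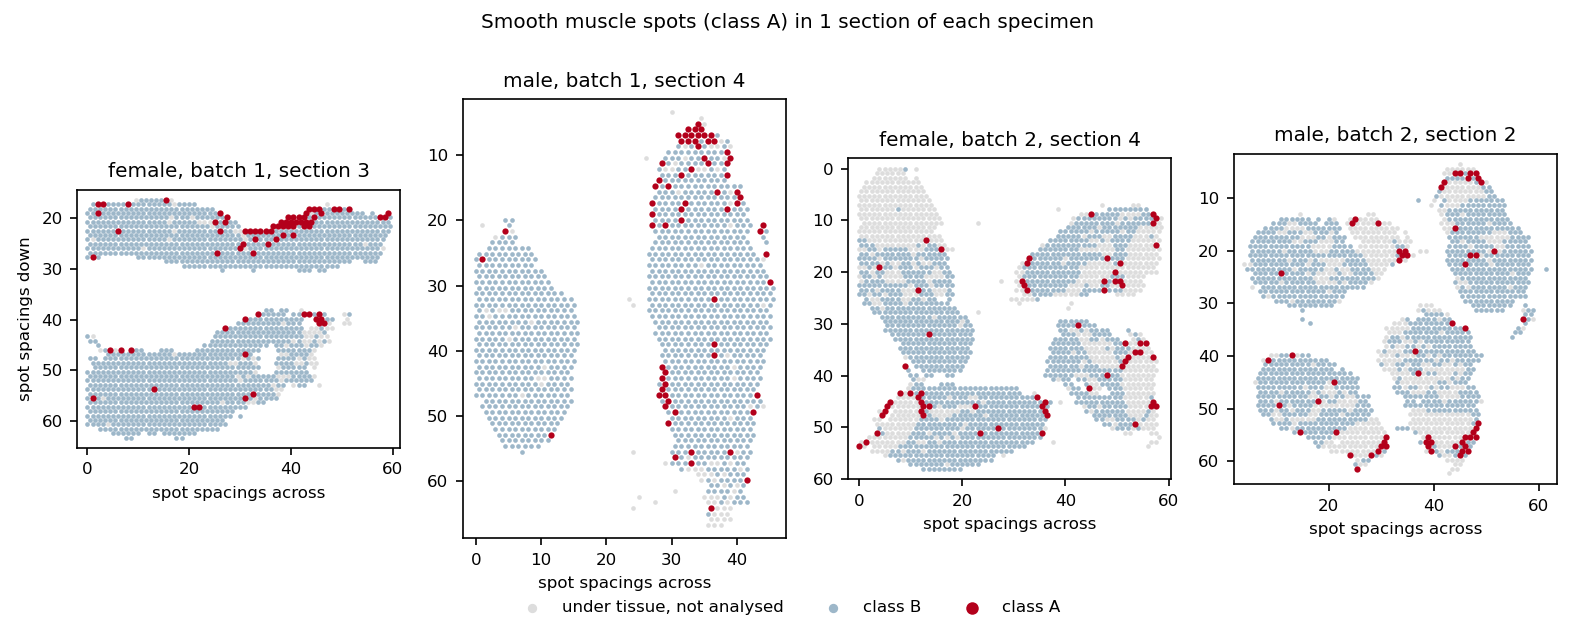
Positions of class A spots (red), class B spots (blue) and spots under tissue with too few UMIs (grey) in the section with the most class A spots of each specimen, in spot spacings across and down the slide. In each section drawn, class A spots lie partly in patches and are more often at the margin of the tissue than class B spots. The share of analysed spots adjoining class A that were class A is 34.6% and 30.3% in the batch 1 sections (female, male). It is 26.7% and 37.0% in those of batch 2 (female, male), the highest of these specimens. In the sections of batch 2 not drawn it is 11.9%, 19.1% and 12.1% (female) and 8.65% and 3.28% (male). In those of batch 1 not drawn it runs from 26.8% to 58.4%.

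Each score gene was also measured in classes built without it, so that its level was not used in the choice. Levels are in CPM, counts per 1000000, a gene's UMIs over all UMIs of a class in a specimen. *TAGLN* stood at 2049, 1732, 492 and 233 CPM in class A and 92.5, 89.4, 118 and 69.2 CPM in class B of a score without *TAGLN*. Every specimen was higher in class A, and the lowest class A value was above the highest class B value. The log2 difference was 3.27 ± 0.45 (SE, n = 4 specimens, edgeR adjusted p = 0.0036), in a comparison in which 2.51% of 6584 genes were called higher.

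*ACTA2* stood at 2198, 1895, 528 and 126 CPM against 41.7, 34.0, 13.5 and 9.24 CPM in classes built without *ACTA2*. *CNN1* and *ACTG2*, measured likewise, were at 297, 309, 23.0 and 13.0 CPM and 317, 270.0, 52.0 and 13.1 CPM in class A, and at 6.43, 4.76, 3.10 and 2.27 CPM and 3.93, 3.53, 0.885 and 0.174 CPM in class B. All 3 were higher in class A in every specimen but had too few UMIs for the test. *MYH11*, the smooth muscle myosin heavy chain and a defining gene of the type, had 5 UMIs among 1050066 in class A and 6 among 58523679 in class B. Its level was thus higher in class A, in 4 of 15 sections, but on very few UMIs. The name of the class therefore rests on actin and actin-associated transcripts and not on its myosin heavy chain. The near-identical actin genes may share reads in ways the counting does not show, so that *ACTA2* and *ACTG2* cannot be separated with certainty.

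Class A spots were shallow. Their median was 960 UMIs against 2397.5 in class B, and class A had the lower median in 15 of 15 sections. The mean log2 ratio of the medians was -1.21 ± 0.53 (SD, n = 4 specimens). The total enters the score as its denominator, so this is a description. Class B was therefore also drawn down, section by section, to the UMI distribution of class A, which left 5851 spots with a median of 1104 UMIs. Both versions are given below, and in sums over spots fewer cells of a type and less RNA per cell cannot be told apart.

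Against all class B spots, transcripts of contractile, matrix and vessel wall genes were higher in class A and transcripts of neurons were lower. The 4 score genes stayed in the totals and out of the test. Of 5146 genes tested, edgeR's quasi-likelihood test with specimen as a block called 797 higher (15.5%) and 554 lower (10.8%) at a Benjamini-Hochberg adjusted p under 0.05, 1351 in all (26.3%). The median log2 difference over all genes tested was 0.01. Without the TMM scaling, which sets this median near 0, 1575 genes were called (30.6%), 585 higher (11.4%) and 990 lower (19.2%), and the median moved to -0.16. Against the depth-drawn spots, 613 of 5329 genes were higher (11.5%) and 380 lower (7.13%), 993 in all (18.6%). The filter took the level over both classes together, in which class A weighs more against drawn spots (9493907 UMIs) than against all (58523679). Genes high in class A thus pass it more easily there. Of the 613 higher and 380 lower genes, 464 and 377 were among those tested both ways. Counts of called genes in the lists below are to be read beside these shares of all genes tested. Where a list has more genes tested against drawn spots, the added ones entered under this filter, and their rises are not added support.

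Among genes tested both ways, 446 were called higher in both, which is 56.3% of those called against all spots and 96.1% of those called against drawn spots. The same shares of lower genes, 310 in both, were 59.4% and 82.2%. Groups of 4 that did not overlap were seen for 257 genes higher in class A, or 4.99% of genes tested, and for 649 lower, or 12.6%. Without the female or the male of batch 1 the count of calls fell to 387 and 471. Batch 1 alone gave 2719 calls among 6811 genes (39.9%) and batch 2 alone 129 among 4399 (2.93%), in fits with 2 specimens each. Class A spots with at least 3 score UMIs gave 1136 calls among 3639 genes (31.2%), 17.8% higher and 13.4% lower.

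*TPM2*, the beta-tropomyosin that lies along actin filaments, stood at 824, 678, 288 and 72.1 CPM in class A. Its class B levels were 46.1, 43.7, 26.7 and 19.3 CPM. All 4 class A values exceeded all class B values, although the male of batch 2 came closest (log2 difference 3.80 ± 0.27, edgeR adjusted p = 3.13e-07). Over the 15 sections the levels were lowest 46.4, median 449 and highest 2612 CPM in class A against 11.6, 37.5 and 79.0 CPM in class B, and class A was higher in 15 of 15.

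*MYL9*, the regulatory light chain whose phosphorylation starts contraction, was at 1579, 1279, 686 and 190.0 CPM in class A and 163, 146, 57.3 and 44.3 CPM in class B (log2 difference 3.27 ± 0.23, edgeR adjusted p = 3.13e-07). The specimens did not overlap, and class A was higher in 14 of 15 sections. Against depth-drawn spots the log2 difference was 2.99 for *TPM2* and 1.68 for *MYL9*.

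The list of contractile genes held 35 names, of which 32 were in the files and 13 passed the filter on low levels. Of these 13, 11 were higher in class A, 1 was lower and 1 was not called, with a median log2 difference of 1.47 against 0.01 over all genes tested. Against drawn spots 12 were higher and 1 lower (median 1.21). Batch 1 alone gave 15 higher and 1 lower of 16 tested, where 20.5% and 19.4% of all genes were higher and lower. Batch 2 alone gave 5 higher and none lower of 10, where these shares were 2.57% and 0.364%.

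*FLNA*, an actin crosslinking filamin, stood at 900.1, 787, 438 and 151 CPM in class A and 133, 124, 89.8 and 82.8 CPM in class B (log2 difference 2.46 ± 0.25, edgeR adjusted p = 7.89e-06). The log2 differences of *PPP1R14A*, an inhibitor of myosin phosphatase, and of the calponin *CNN2* were 2.82 ± 0.31 and 2.15 ± 0.23. *CSRP1*, a LIM protein of the actin cytoskeleton, and *TPM1*, the alpha-tropomyosin, rose by 1.81 ± 0.24 and 1.36 ± 0.17. The remaining higher genes were *VCL* (1.47), *SMTN* (1.45), *TAGLN2* (1.34) and *FHL1* (1.31). *PPP1R14A* and *FHL1* overlapped between classes, since the male of batch 2 was low in class A. *VCL* and *SMTN* were lower in class A than in class B in the female of batch 2 and higher in the other specimens.

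*PCP4*, a calmodulin-binding peptide listed here for its use as a smooth muscle marker and also abundant in neurons, went the other way. It stood at 102, 162, 311 and 360.3 CPM in class A and 377, 439, 1027 and 556 CPM in class B (log2 difference -1.23 ± 0.19, edgeR adjusted p = 4.20e-04), with all class A values below all class B values. *PDLIM7* was not called (log2 difference 0.37 ± 0.29, edgeR adjusted p = 0.371).

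Several contractile genes were too low overall for the test but separated the classes in level. *DES*, the muscle intermediate filament desmin, stood at 112, 124, 97.97 and 59.0 CPM in class A and 2.62, 2.03, 7.25 and 4.71 CPM in class B. *RBPMS2*, an RNA-binding protein of smooth muscle, was at 36.3, 23.8, 23.1 and 19.7 CPM against 2.43, 2.25, 1.27 and 1.05 CPM. Neither overlapped between classes. *MYLK*, the kinase that phosphorylates the regulatory light chain, was at 29.7, 45.2, 11.5 and 0 CPM against 1.12, 0.696, 0.664 and 0.174 CPM, and *CALD1*, caldesmon, at 175, 214, 34.6 and 13.1 CPM against 20.8, 26.4, 2.82 and 12.5 CPM. Both overlapped through the male of batch 2. *SYNM*, *HSPB7* and *ITGA8* had no UMI in class A.

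**Figure D2:**
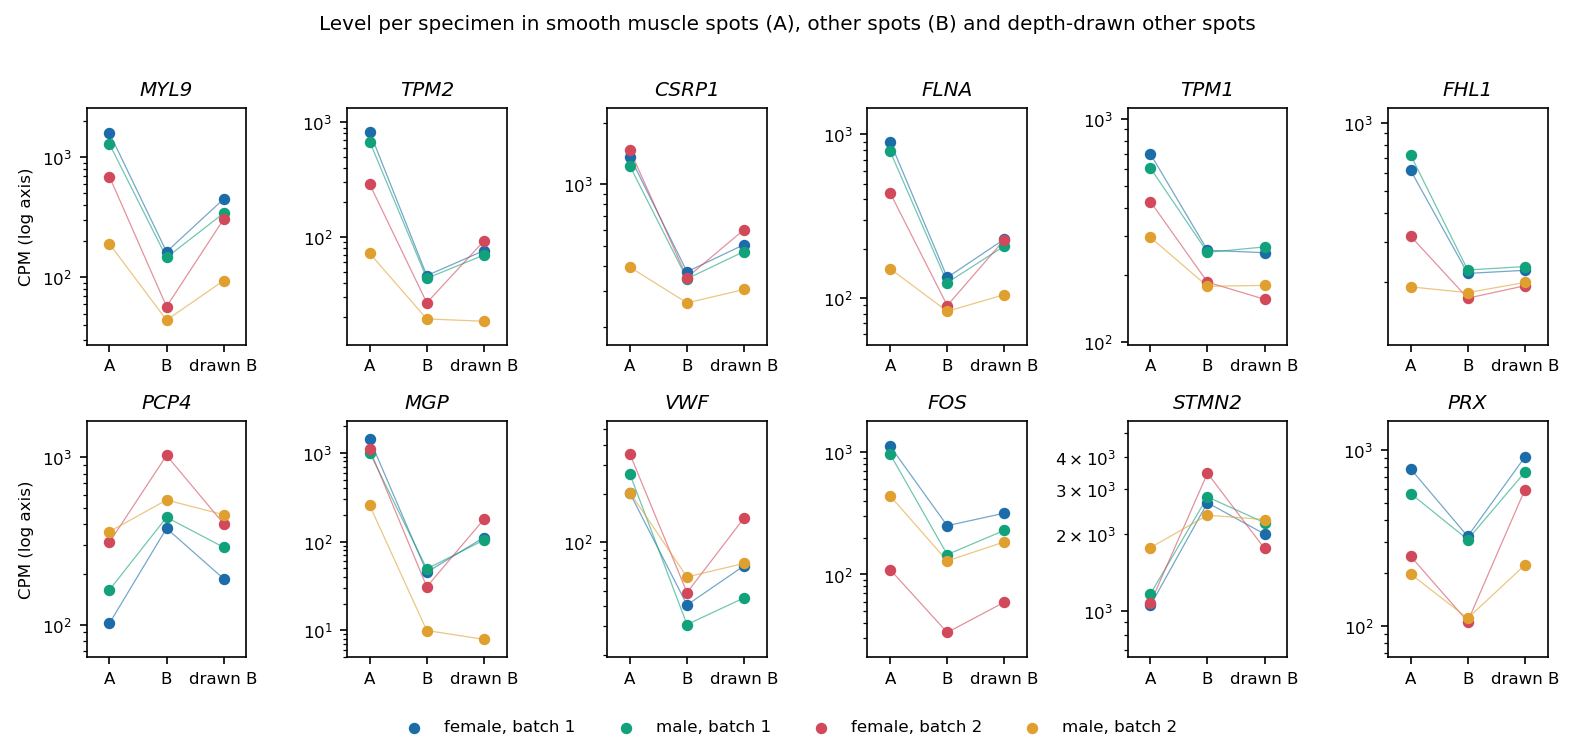
Level of 12 genes in CPM on a log axis, with 1 point per specimen (colours) for class A, class B and depth-drawn class B, joined by lines. *TPM2*, *MYL9* and *MGP* lie higher in class A of every specimen, *PCP4* and *STMN2* lower, and *PRX* lies above all class B spots but below the drawn ones in every specimen.

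Pericyte genes were mixed. Of 17 listed, 3 passed the filter, with 1 higher, 1 lower and a median of 0.27. *FRZB*, a secreted Wnt antagonist, rose by 1.80 ± 0.25 (edgeR adjusted p = 1.71e-04), *MCAM* was not called against all spots (log2 difference 0.27 ± 0.19, edgeR adjusted p = 0.299) but rose against drawn spots (0.39, edgeR adjusted p = 0.0428), and *RGS4* fell (log2 difference -0.81 ± 0.28, edgeR adjusted p = 0.0428) but was higher in the male of batch 2. The *RGS4* call was lost without the female of batch 1, without the male of batch 1 and without the female of batch 2, and without some single sections. *PDGFRB*, the receptor that defines mural cells, was at 125, 116, 121 and 65.5 CPM in class A and 22.7, 20.6, 9.85 and 11.5 CPM in class B, with no overlap. *RGS5*, a pericyte regulator of G protein signals, was at 178, 166, 5.76 and 26.2 CPM against 47.9, 43.3, 2.27 and 12.9 CPM, higher in each specimen and low in batch 2 in both classes. The pericyte genes *CSPG4*, *NDUFA4L2* and *STEAP4* had no UMI in class A, and the summed level of the list was 1188 ± 443 CPM against 929 ± 370 CPM (SD, n = 4).

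Genes of vascular tone were mostly too low to test. Of 37 listed, 4 were tested and 2 rose (median 1.24). *RAMP1*, a subunit of the receptor for the sensory neuropeptide CGRP, stood at 208, 316, 386 and 72.1 CPM in class A and 25.2, 34.5, 56.3 and 23.9 CPM in class B (log2 difference 3.01 ± 0.22, edgeR adjusted p = 3.13e-07). *RAMP2*, a subunit of the adrenomedullin receptor, was at 132, 176, 213 and 59.0 CPM against 36.2, 39.9, 31.7 and 9.24 CPM (log2 difference 2.46 ± 0.21, edgeR adjusted p = 1.56e-06). Neither gene overlapped between classes. *EDNRA*, the endothelin receptor of smooth muscle, had 25 UMIs in class A, and the adrenergic receptors *ADRA1A*, *ADRA1B* and *ADRA1D* and the angiotensin receptor *AGTR1* had none, which at this depth does not show that they were absent.

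The largest rise of all tested genes by the naming rule was *MGP*, the matrix Gla protein that inhibits calcification of vessel walls. It stood at 1421, 1006, 1095 and 255 CPM in class A and 45.1, 49.3, 30.9 and 9.93 CPM in class B (log2 difference 4.98 ± 0.21, edgeR adjusted p = 1.30e-09), higher in 14 of 15 sections. *EFEMP1*, fibulin-3 of elastic fibres, was at 429, 414, 449.5 and 98.3 CPM against 26.8, 28.6, 27.6 and 10.3 CPM (log2 difference 4.05 ± 0.18, edgeR adjusted p = 1.79e-09). *AEBP1*, a collagen-associated secreted protein, was at 877, 1001, 1199 and 138 CPM against 66.0, 72.1, 65.6 and 26.7 CPM (log2 difference 3.84 ± 0.26, edgeR adjusted p = 2.63e-07). For all 3, no class A value fell within the class B range, and the male of batch 2 was the lowest of class A.

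The other named rises were mainly secreted and membrane proteins. *SOD3*, the extracellular superoxide dismutase, *IGFBP6*, an insulin-like growth factor binding protein, and *ANGPTL7*, an angiopoietin-like protein, rose by 3.61, 3.49 and 3.40. *PTGDS*, prostaglandin D synthase, *CRIM1*, a membrane protein that binds bone morphogenetic proteins, and *PROS1*, the anticoagulant protein S, rose by 3.38, 3.16 and 2.99. These 6 did not overlap between classes. *ECRG4* (3.65), the small proteoglycan *DCN* (2.98) and the glucose transporter *SLC2A1* (3.27) were higher in each specimen, but the male of batch 2 in class A lay within the class B range. Against drawn spots these 9 genes kept differences between 1.58 and 2.22.

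Matrix lists followed. Of 19 fibroblast genes 5 were tested and all 5 rose (*MGP*, *DCN*, *GSN*, *FN1* and *APOD*, median 2.08). Against drawn spots 6 of 7 rose, with more genes let in by the filter, in which class A weighs more there. *APOD* did not hold there, with a log2 difference of -0.01 after 1.05 against all spots. The fibroblast list summed to 14699 ± 6485 CPM in class A, 4398 ± 2086 CPM in class B and 9330 ± 4614 CPM in drawn class B (SD, n = 4). Of the elastic fibre list both tested genes rose, *EFEMP1* and *EFEMP2* (2.24 ± 0.27, higher in 3 of 4 specimens). Against drawn spots 7 of 7 rose, but all except these entered only with the greater weight of class A in the filter. *ELN*, elastin itself, was too low for the test against all spots and stood at 72.5, 61.8, 34.6 and 6.55 CPM in class A and 3.87, 6.10, 0.996 and 0.697 CPM in class B, with no overlap.

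Basement membrane genes encode the sheet around each muscle cell and beneath endothelium. They rose in 5 of 6 tested cases (median 1.56) and in 4 of 6 against drawn spots (median 0.80). The list summed to 5502 ± 2008 CPM in class A, 3576 ± 653 CPM in class B and 5508 ± 1407 CPM in drawn class B (SD, n = 4). Its sum in class A was above that in drawn class B in both specimens of batch 1 and below it in both of batch 2. *LAMB2* and *LAMA4*, laminin chains, rose by 2.44 ± 0.24 and 1.83 ± 0.27, *COL4A2*, a type IV collagen chain, by 1.65 ± 0.18, and *HSPG2*, perlecan, by 1.46 ± 0.22. *LAMA4* was not higher in the male of batch 2. *SPARC* barely passed (log2 difference 0.57 ± 0.20, edgeR adjusted p = 0.0469) and turned to -0.12 against drawn spots, where it was not called. Without the female or the male of batch 1, and without some single sections, it was not called. Perineurial genes also rose: *SLC2A1*, above, and *ITGB4*, an integrin of epithelium-like sheaths (log2 difference 1.76 ± 0.24, edgeR adjusted p = 1.39e-04). The perineurial list summed to 1477 ± 802 CPM in class A, 278 ± 32.5 CPM in class B and 476 ± 140 CPM in drawn spots.

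Endothelial genes rose as well. *VWF*, the clotting factor stored in endothelium, stood at 201, 264, 352 and 203 CPM in class A and 40.8, 30.8, 48.6 and 60.8 CPM in class B (log2 difference 2.73 ± 0.22, edgeR adjusted p = 8.97e-07), and *EGFL7*, a secreted endothelial factor, rose by 1.13 ± 0.18. Both separated the classes, as did *PECAM1*, the adhesion protein CD31, at 138, 183, 144 and 59.0 CPM against 17.6, 20.3, 14.8 and 15.5 CPM. Only *VWF* and *EGFL7* of 21 listed genes passed the filter, and both rose. Against drawn spots 4 of 4 rose, the added genes having entered with the greater weight of class A in the filter. The list summed to 1018 ± 287 CPM in class A and 273 ± 24.0 CPM in class B (SD, n = 4), and *KDR* and *SOX18* had no UMI in class A. *ACKR1*, a chemokine receptor of venules, rose (log2 difference 0.86 ± 0.22, edgeR adjusted p = 0.0114) with 95.6, 59.4, 97.97 and 341 CPM in class A and 50.9, 41.6, 128 and 128 CPM in class B, higher in 3 specimens and lower in the female of batch 2. It was not called without the female of batch 1. None of 3 arterial genes tested was called, with a median of 0.11.

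Neuronal genes were lower. Of 14 tested, 11 fell and none rose (median -0.87), where 10.8% of all genes tested fell. Against drawn spots 12 fell (median -0.56), where 7.13% of all genes tested fell. *STMN2*, a tubulin-binding protein of axons, stood at 1049, 1163, 1072 and 1769 CPM in class A and 2655, 2797, 3468 and 2373 CPM in class B (log2 difference -1.01 ± 0.20, edgeR adjusted p = 0.00224). *PRPH*, the peripheral neuron filament peripherin, was at 1108, 1227, 1118 and 2516 CPM against 2701, 2719, 3673 and 3124 CPM (log2 difference -0.94 ± 0.20, edgeR adjusted p = 0.00415). Class A was the lower class in each specimen for both genes, without overlap, and the male of batch 2 was nearest to class B. *NEFL*, *THY1* and *TUBB3* fell by 0.74, 0.75 and 0.57 on the log2 scale. Without either specimen of batch 1, the calls of *PRPH*, *NEFL*, *THY1* and *TUBB3* were lost, and that of *STMN2* was lost without the female. Those of *NEFL* and *TUBB3* were also lost without section 2 of the male of batch 2. The list summed to 16635 ± 2594 CPM in class A and 31088 ± 4200 CPM in class B, so that class A spots also carried neuronal transcripts.

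The 8 named falls were *GPX2*, *SYNPR*, *AVIL*, *ANO4*, *MGARP*, *CCL1*, *SV2A* and *SLC35F3*, with log2 differences from -2.50 to -1.66. *SYNPR*, synaptoporin of synaptic vesicles, stood at 6.59, 11.9, 5.76 and 65.5 CPM in class A and 62.0, 94.2, 116 and 162 CPM in class B (log2 difference -2.37 ± 0.33, edgeR adjusted p = 1.52e-04). *AVIL*, advillin of sensory neurons, was at 6.59, 4.75, 5.76 and 13.1 CPM against 14.3, 19.96, 85.9 and 83.6 CPM, and *SV2A*, a synaptic vesicle protein, at 3.30, 7.13, 11.5 and 19.7 CPM against 32.1, 33.9, 31.5 and 23.9 CPM. These class A levels rest on between 7 and 18 UMIs per gene in all 4 specimens, and *AVIL*, *CCL1*, *SV2A* and *SLC35F3* did not pass the filter against drawn spots. The *MGARP* and *CCL1* calls were lost without the female of batch 1, and *MGARP* also without the male of batch 1.

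Myelin genes depended on the comparison. *PRX*, periaxin, which stabilises the myelin sheath, stood at 778, 563, 248 and 197 CPM in class A, 322, 308, 106 and 110.1 CPM in all class B and 907, 744, 590.2 and 221 CPM in drawn class B. Class A was above all class B spots in every specimen (log2 difference 1.23 ± 0.17, edgeR adjusted p = 1.18e-04), with overlapping ranges, and below the drawn spots in every specimen (log2 difference -0.39). Of 6 tested genes of myelinating Schwann cells 4 rose against all spots (median 1.14), and none rose and 2 fell against drawn spots (median -0.26). *MAL*, a myelin membrane protein, went from 1.45 to -0.21, the latter not called.

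Genes of satellite glia, the cells that wrap neuronal cell bodies, went both ways singly and were lower in class A in sum. Of 5 tested, *GLUL*, glutamine synthetase, rose (log2 difference 0.99 ± 0.18, edgeR adjusted p = 0.00129) and *FABP7*, a fatty acid binding protein, fell (log2 difference -0.77 ± 0.22, edgeR adjusted p = 0.0171), with a median of -0.15. Against drawn spots *GLUL* was not called and 3 of 6 fell, *FABP7* among them (-0.85). The list summed to 4265 ± 158 CPM in class A, 5498 ± 495 CPM in class B and 5688 ± 406 CPM in drawn class B (SD, n = 4). Its class A sums lay below those of class B and of drawn class B without overlap. Against all spots the *FABP7* call was lost without the female of batch 1, the male of batch 1, the female of batch 2 or section 2 of the male of batch 2. Of 7 macrophage genes tested, 4 rose against all spots, *CD14* by 1.06 and *CSF1R* by 0.78 among them, where 15.5% of all genes rose. Against drawn spots 1 of 8 rose, which is near the 11.5% of all genes that rose there. The *CSF1R* call was lost without the female of batch 2. Lymphocyte and mast cell genes summed to 66.0 ± 21.9 CPM against 42.5 ± 18.4 CPM, skeletal muscle genes to 29.1 ± 15.3 CPM against 14.4 ± 1.47 CPM, and red blood cell genes to 0.824 ± 1.65 CPM against 0.167 ± 0.268 CPM. Cardiac muscle genes summed to 86.6 ± 58.4 CPM against 17.2 ± 3.34 CPM. No gene of these 4 lists passed the filter. The adipocyte list summed to 2559 ± 2071 CPM against 2632 ± 1962 CPM, and its 1 tested gene was not called. None of the 14 mitochondrially encoded genes looked for was named in the files. The part that any of these cell types had in the differences was not tested.

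**Figure D3:**
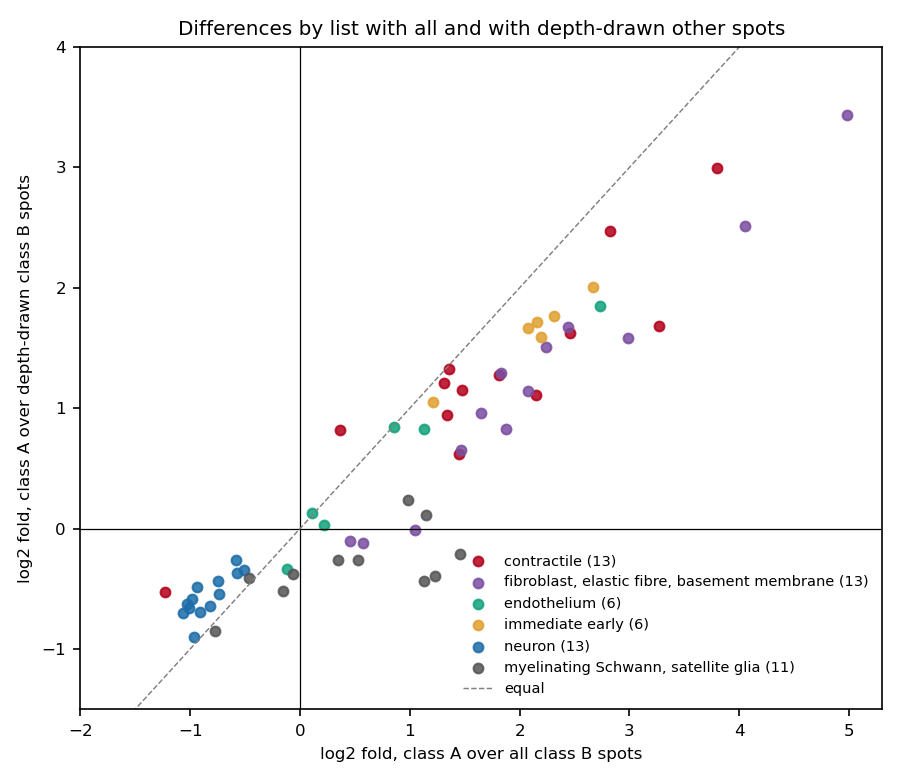
Log2 difference of the genes of 6 groups of lists between class A and all class B spots (across) and between class A and depth-drawn class B spots (up), 1 point per gene tested both ways, with the diagonal dashed. Contractile, matrix, endothelial and immediate early genes lie mostly above 0 on both axes and mostly below the diagonal, neuronal genes lie below 0 on both, and the myelin genes *PRX* and *MAL* cross 0.

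Immediate early genes, which cells switch on within minutes of a stimulus, were higher in class A. All 6 tested rose (median 2.18). Against drawn spots 8 of 8 rose (median 1.69), the added genes having entered with the greater weight of class A in the filter. *FOS*, a subunit of the AP-1 transcription factor, stood at 1121, 963, 109.5 and 439 CPM in class A and 251, 146, 33.5 and 129 CPM in class B (log2 difference 2.32 ± 0.19, edgeR adjusted p = 1.40e-06), higher in each specimen but with a wide spread between specimens. *DUSP1*, a phosphatase of MAP kinases, was at 808, 1058, 288 and 694 CPM against 199, 182, 119 and 178 CPM without overlap (log2 difference 2.16 ± 0.18, edgeR adjusted p = 1.56e-06). *BTG2*, *ZFP36*, *NR4A1* and *JUN* rose by 2.67, 2.20, 2.08 and 1.21.

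Of 10 tested genes of the cytoskeleton and its serum response factor programme, 5 rose (median 0.57). *VIM*, vimentin, and *MYH9*, the non-muscle myosin heavy chain, rose by 1.23 ± 0.23 and 1.41 ± 0.21, without overlap between classes. *ACTB* and *ACTG1*, the actins of all cells, were not called against all spots (log2 difference 0.40 ± 0.18 and log2 difference -0.28 ± 0.18). *ACTB* rose against drawn spots (0.37, edgeR adjusted p = 0.00617), and against all spots it was called as higher without the male of batch 2 or without section 1 of that specimen. *NR2F1*, a nuclear receptor not particular to vessels, rose by 1.05 ± 0.18. It was the 1 called of 2 tested genes in the list of mural transcription factors.

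The difference between class A and class B was itself compared between batches and between sexes. Of 5146 genes 0 (0.0%) differed between batches at an edgeR adjusted p under 0.05 and 251 at an unadjusted p under 0.05. Between sexes the counts were 0 (0.0%) and 120. DESeq2 called 1 and 0. With depth-drawn class B 36 genes differed between batches and 0 between sexes, where 124 had an unadjusted p under 0.05. Leaving out section 3 of the male of batch 1 gave 3 genes by batch, and leaving out section 1 of the male of batch 2 gave 6. With 2 specimens a side, the absence of a call does not show that the batches or sexes were alike.

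Within class A, levels in the 2 batches were compared directly with sex as a covariate. Of 5537 genes 21 were higher in batch 2 (0.379%) and 38 lower (0.686%), 59 in all (1.07%). *PLA2G2A*, a secreted phospholipase of inflammation, stood at 26.4, 11.9, 3101 and 1526 CPM in class A and 0.499, 1.23, 200.5 and 109 CPM in class B. *SERPINA3*, an acute-phase protease inhibitor, was at 155, 42.8, 3452 and 4985 CPM in class A and 81.8, 58.6, 1208 and 3933 CPM in class B, and *CHI3L1*, a secreted chitinase-like protein, at 13.2, 11.9, 962 and 681 CPM and 15.4, 14.8, 189 and 418 CPM. Both specimens of batch 2 were above both of batch 1, in class B too. The class A levels of the interferon-induced genes *CXCL10*, 6.59, 4.75, 5.76 and 865 CPM, and *UBD*, 6.59, 2.38, 0 and 399.6 CPM, were high in the male of batch 2 alone.

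The lower genes with the largest fitted differences had no UMI in class A of batch 2. *CRABP2*, a retinoic acid binding protein, was at least 9.58-fold lower in batch 2 than its mean of 88.1 CPM in batch 1, against a floor of 3 UMIs over both specimens. *RNASE6* and the myelin gene *MAG* were at least 7.85-fold and 5.12-fold lower, and *EMID1* and *FLRT2* at least 4.79-fold and 4.46-fold lower. The count of calls rested on single sections, from 7 without section 2 of the female of batch 2 to 138 without section 2 of the male of batch 1. Of 18 contractile genes tested here 1 was called, and the median was -1.22 against 0.01 over all genes. Batch goes with the Space Ranger version and the animals and cannot be told apart from them. Between sexes 0 of 5537 genes (0.0%) were called in class A and 114 had an unadjusted p under 0.05.

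Position was not used to choose the spots. Among the 6 positions adjoining a spot, the share of analysed spots that were class A was higher around class A than around class B spots by 41.1, 32.7, 14.6 and 12.9 percentage points in the 4 specimens. The mean difference was 25.3 ± 13.8 points (SD, n = 4), positive in 14 of 15 sections, and the exception was section 4 of the male of batch 2. The exact two-sided sign-flip permutation test gave p = 0.125, the smallest that 4 specimens allow. Of class A spots 327 (44.0%) had no class A neighbour, 186 (25.0%) had 1 and 231 (31.0%) had at least 2. The last share was 44.7% in batch 1 and 14.7% in batch 2.

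Class A spots were also more often at a margin. The share with fewer than 6 adjoining spots under tissue exceeded that of class B by 29.6, 32.3, 35.2 and 18.4 percentage points (mean 28.9 ± 7.32, SD, n = 4), and by more than 0 in 15 of 15 sections. The same exact permutation test gave p = 0.125, again the smallest possible. Spots at a margin can be covered in part, and the place of partial cover in this difference was not tested.

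Around class A the levels changed within a few spots. The summed contractile list, without the score genes, stood at 5613 ± 2471 CPM in class A, 2679 ± 631 CPM in spots adjoining it and 2123 ± 295 CPM at 2 spots' distance (SD, n = 4). It was 1928 ± 251 CPM at 5 or more. The endothelial list went from 1018 CPM through 397 and 318 CPM to 259 CPM at these distances, and the fibroblast list from 14699 CPM through 8156 and 5951 CPM to 3718 CPM. The neuronal list was 16635 CPM in class A and 29211 CPM already in adjoining spots. The myelin list was at 5075 ± 3535 CPM in class A and 5445 ± 4496 CPM in adjoining spots. It was higher in adjoining spots than in class A in both specimens of batch 1 (9924 against 8889 and 8673 against 7242 CPM) and lower in both of batch 2 (1112 against 1666 and 2070.5 against 2502 CPM). Median UMIs per spot rose over the same distances from 1073 to 3012, which was not separated from these levels.

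**Figure D4:**
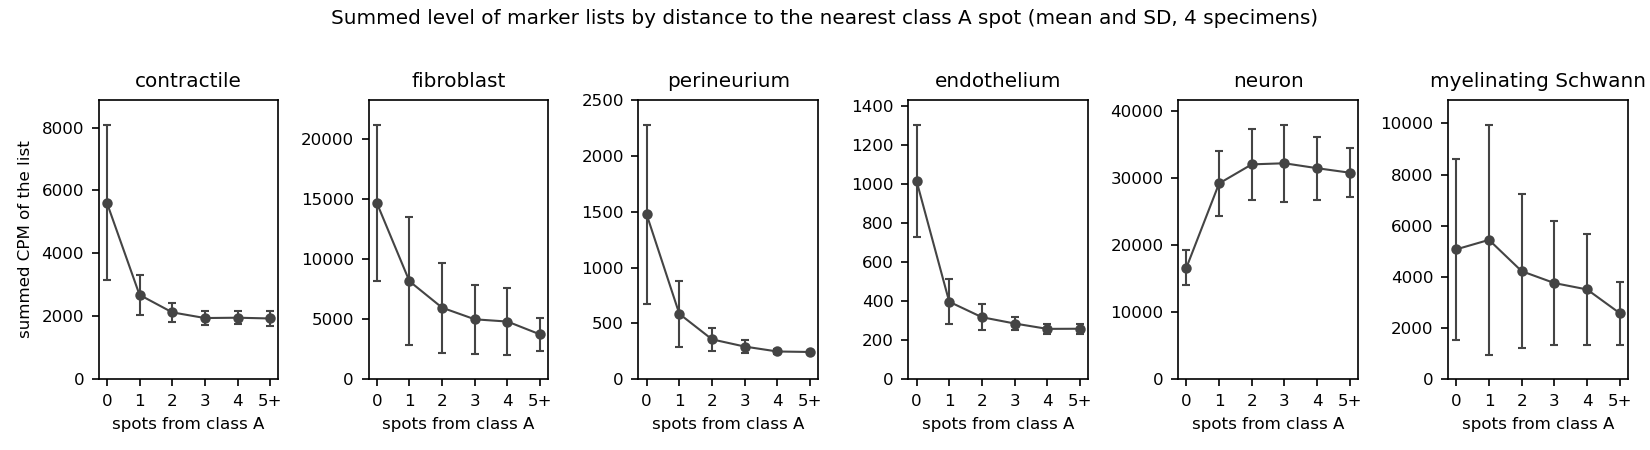
Summed CPM of 6 marker lists (vertical axis, from 0) against the distance in spots to the nearest class A spot, as the mean of 4 specimens with SD bars. The contractile list falls from 5613 CPM at 0 to 2679 CPM at 1 spot, while the neuronal list rises from 16635 to 29211 CPM.

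Class A spots differed among themselves by position. The 231 with at least 2 class A neighbours, called grouped, were compared with the 327 that had none, called isolated. Of 1044 genes tested 21 were higher in grouped spots (2.01%) and 2 lower (0.192%), 23 in all (2.2%). *SLC39A14*, a zinc and iron transporter, stood at 226, 131, 111 and 989.6 CPM in grouped and 63.5, 95.9, 92.9 and 177 CPM in isolated spots (log2 difference 1.66 ± 0.36, edgeR adjusted p = 0.0171). *DEPP1* and *GADD45B*, both stress-responsive, were higher by 1.41 ± 0.25 and 1.35 ± 0.26. The contractile genes *FLNA*, *TPM1* and *MYL9* were higher by 1.14 ± 0.21, 0.99 ± 0.23 and 0.96 ± 0.22, and *MGP* and *AEBP1* by 1.30 ± 0.32 and 1.22 ± 0.23.

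*TAC1*, which encodes the neuropeptide substance P, stood at 246, 341, 55.3 and 533 CPM in grouped and 534, 671, 139 and 1094 CPM in isolated spots (log2 difference -0.93 ± 0.20, edgeR adjusted p = 0.0175). It was lower in each specimen, though the grouped spots of the female of batch 2 held only 18078 UMIs. *ANK2*, an axonal ankyrin, was the other lower gene (-0.91 ± 0.23). Grouped spots had a median score of 43.8 and 1250 UMIs, and isolated spots 26.7 and 865 UMIs, whose part in these differences was not tested. No gene was called without the female of batch 1 or without the female of batch 2, where 58 and 136 genes had an unadjusted p under 0.05, and 41 were called without the male of batch 2. DESeq2 called 6.

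Class A was also set against spots picked by the same rule with genes of endothelium and of fibroblasts. Endothelium-rich spots were picked with *PECAM1*, *CDH5*, *VWF* and *EGFL7*, and fibroblast-rich spots with *DCN*, *LUM*, *PDGFRA* and *DPT*. Class A shared 180 spots (24.2%) with the 745 endothelium-rich spots and 178 (23.9%) with the 744 fibroblast-rich spots. It shared 224 (30.1%) with as many spots picked by the perineurial list, 32 (4.30%) with those picked by the myelin list and 0 with those picked by the neuronal list. A class picked this way held 5.05% to 5.06% of all analysed spots. Shared spots were left out of both sides. The endothelium-rich and fibroblast-rich sides thus held no class A spot and had median scores of 0, against 29.2 and 30.9 in class A. Contractile genes that run with the score can therefore be higher in class A through the choice of spots alone.

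Against endothelium-rich spots, 150 of 4584 genes were higher in class A (3.27%) and 51 lower (1.11%), 201 in all (4.38%). *TPM2* stood at 821, 568.4, 254 and 62.6 CPM in class A and 187, 121, 119 and 26.9 CPM in endothelium-rich spots (log2 difference 1.96 ± 0.19, edgeR adjusted p = 5.08e-13), higher in each specimen. *MGP* was at 1603, 826, 888 and 180.1 CPM against 303, 153, 351 and 17.9 CPM (log2 difference 2.16 ± 0.16, edgeR adjusted p = 1.04e-17). *DES* and the troponins *TNNT2* and *TNNC1*, subunits of the striated muscle switch, were higher by 2.30 ± 0.41, 2.67 ± 0.41 and 2.49 ± 0.40, and the chemokine *CCL26* by 3.00 ± 0.34. *TNNT2* and *CCL26* had no UMI in class A of the male of batch 2.

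Of 15 contractile genes tested against endothelium-rich spots, 8 were higher and none lower (median 0.92, all genes tested -0.0023). Lower in class A were *PRX* (-0.63 ± 0.14) and, among the largest falls, *NEIL2*, *EXOC1L*, *KLK5* and *MAPK10*, from -1.36 to -1.06. Median UMIs were 957.5 in class A and 839 in endothelium-rich spots. The count fell to 61 without the female of batch 1, to 103 without the male of batch 1 and to 105 without the female of batch 2.

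Against fibroblast-rich spots, 32 of 4077 genes were higher in class A (0.785%) and 58 lower (1.42%), 90 in all (2.21%). *DES* stood at 126, 131, 98.2 and 51.2 CPM in class A and 5.94, 5.21, 53.3 and 9.54 CPM in fibroblast-rich spots (log2 difference 2.69 ± 0.44, edgeR adjusted p = 8.12e-05). *MUSTN1*, a small nuclear protein of the musculoskeletal system, was at 381, 190.3, 131 and 76.8 CPM against 23.8, 41.7, 53.3 and 28.6 CPM (log2 difference 2.41 ± 0.31, edgeR adjusted p = 2.34e-06), and *TPM2* and *RERGL* were higher by 1.82 ± 0.22 and 2.06 ± 0.38. The endothelial genes *VWF* and *PECAM1* were also higher, by 1.01 ± 0.22 and 1.21 ± 0.30, as were 4 of 4 tested genes of the endothelial list.

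Of 14 contractile genes tested against fibroblast-rich spots, 8 were higher and none lower (median 0.67, all genes tested 0.0045). *APOD*, an apolipoprotein of endoneurial fibroblasts, stood at 4072, 3848, 8568 and 1408 CPM in class A and 21734, 17219, 9466 and 3119 CPM in fibroblast-rich spots (log2 difference -1.57 ± 0.20, edgeR adjusted p = 2.21e-06), lower in each specimen. *BCAS1*, *PLXDC1*, *PLEKHB1* and *PMP2* were lower by -1.88, -1.41, -1.38 and -1.33 on the log2 scale, and *PRX* by -1.23. Median UMIs were 998 in class A and 782.5 in fibroblast-rich spots. The count fell to 27 and 25 without the female and the male of batch 1.

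Both comparisons share class A spots, so the values are set side by side and not counted as independent. Of 16 genes higher in class A in both, 15 had a symbol. The contractile ones among them were *TPM2* (1.96 and 1.82), *DES* (2.30 and 2.69), *PPP1R14A* (1.99 and 1.21), *FLNA* (1.08 and 0.84), *TPM1* (0.97 and 1.18), *MYL9* (0.96 and 0.74) and *CSRP1* (1.20 and 0.50). The others were *MYH9*, *MGP*, *FRZB*, *MUSTN1*, *NR4A1*, *CCL26*, *THBS1* and *IGFBP2*. *DES*, *MUSTN1*, *CCL26* and *THBS1* did not pass the filter against all class B spots. They passed it here, where class A weighs more in the level over both sides.

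**Figure D5:**
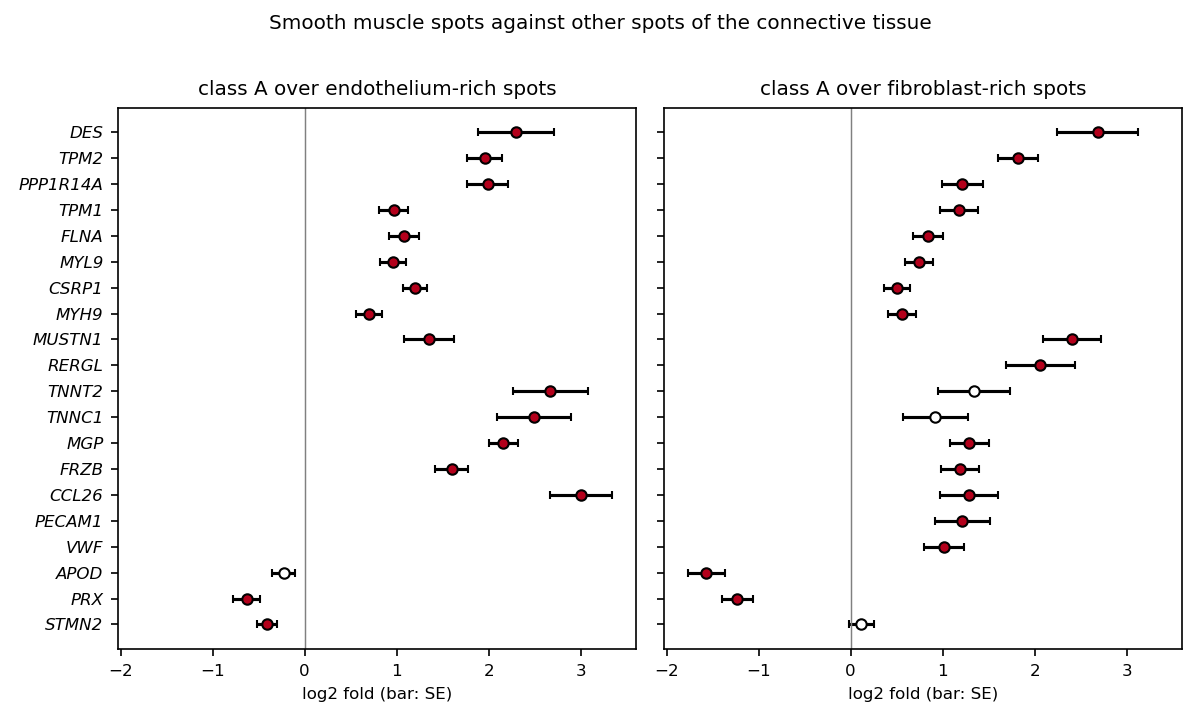
Log2 difference with SE of 20 genes between class A and endothelium-rich spots (left) and between class A and fibroblast-rich spots (right). Filled points passed an adjusted p of 0.05, open points did not, and genes not tested on a side are left out there. Contractile genes such as *DES* and *TPM2* lie above 0 on both sides and *PRX* below 0 on both.

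Across the analysed spots of a section, the genes whose level ran most alike with the score were *MGP*, *IGFBP6*, *SFRP4*, *DCN* and *AEBP1*. Their mean Pearson r over 15 sections was 0.341, 0.331, 0.301, 0.298 and 0.284, out of 5441 genes ranked on log-scaled UMIs per 10000. *SLC2A1*, *IGFBP4*, *ECRG4*, *EFEMP1* and *TPM2* followed, down to 0.235. For *TPM2* the mean was 0.351 in batch 1 and 0.103 in batch 2. The lowest mean r was that of *TUBA1B*, an alpha-tubulin, at -0.241. These spots share their libraries and depth, and the values are a description.

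The authors' deposited tables give Moran's I, which is high where nearby spots have similar levels, for each gene in 16 *M. fascicularis* sections. In the authors' deposited table the median I of *ACTA2* was 0.264 in batch 1 and 0.0462 in batch 2, and its adjusted p was under 0.05 in 15 of 16 sections. For *TAGLN* the authors' deposited table gives medians of 0.248 and 0.108. *MYL9* had 0.236 and 0.0567 and *MGP* 0.216 and 0.0532 in the authors' deposited table, and *MYH11* passed in none of the 9 sections that list it. The section analysed here only through that table, section 3 of the male of batch 2, had an I of 0.0474 for *ACTA2* and 0.124 for *TAGLN*, from 88 and 537 UMIs under tissue in the authors' deposited table.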

How the data were processed

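Fresh frozen ganglia were cut at 10 µm and placed on Visium slides, per the labels' protocols. The deposited matrices hold UMI counts per gene and spot, not normalized, made by the authors with Space Ranger 2.0.0 in batch 1 and 2.1.0 in batch 2, per the file headers. The submitters' processing notes name the build Mmul_10, while the gene identifiers are those of *M. fascicularis*, so no coordinates are given. The authors' deposited tables of spatial enrichment give Moran's I as a score, with its p-value and the gene's UMI count under tissue. The 4992 slide positions carry the same barcodes on every slide, and no doublet caller was run.

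Spots with at least 500 UMIs under tissue were classed within each section, and UMIs were summed per specimen and class. Totals in class A ran from 152648 to 420616 UMIs and in class B from 5738460 to 18688300. Genes were tested where at least 5 UMIs could be expected in class A of at least 3 of 4 specimens from the level over both classes together. edgeR 4.0.16 (R 4.3.3) was run with TMM scaling, specimen as a block, and Benjamini-Hochberg adjustment at 0.05. Standard errors are the log2 difference over the square root of the F statistic. Comparisons between batches and sexes used sums per specimen, those of position an exact sign-flip permutation test. DESeq2 1.42.0, other filters, thresholds and scalings, sections as samples, left-out sections and specimens, and, chosen after seeing the data, single batches and a minimum of 3 score UMIs were alternatives. The fits were tested on simulated counts.

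Named genes are the 15 largest rises and 8 largest falls with an adjusted p under 0.05, a mean of at least 20 CPM in either class and the same direction in 4 of 4 specimens, up to 6 per list, and the 5 largest each way in the other comparisons. Other genes were named after their values were seen, and some that the rule would name are not reported here. The members and gene lists were chosen with earlier results of these data known. The sections of other species and 1 section of the male of batch 2 without a matrix were not used in the tests. Sequences are not used here.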

Additional observations from a re-analysis of the deposited data

Results flagged for a closer look

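Within groups of 4 samples, 13 of 154 groups had a sample that stood far from the other 3 by Dixon's test, which chance does in about 1 in 20 groups. In class A of the male of batch 2, *ACKR1* was high at 341 CPM (59.4 to 97.97 in the others) and the elastic fibre gene *EFEMP1* low at 98.3 CPM (414 to 450). Neuronal genes were high in the same spots, with *STMN2* at 1770 CPM (1050 to 1160), *PRPH* at 2520 CPM (1110 to 1230), *TUBB3* at 2980 CPM (2020 to 2080) and *SYNPR* at 65.5 CPM (5.76 to 11.9). In class B of that specimen, *AEBP1* at 26.7 CPM (65.6 to 72.1), *EFEMP1* at 10.3 CPM (26.8 to 28.6) and *MCAM* at 186 CPM (281 to 294) were low. Class B of the female of batch 2 was low in *MYH9* at 162 CPM (277 to 294) and high in *SLC35F3* at 35.9 CPM (20.7 to 22.1). The score needed to enter class A was 72.4 in section 1 of the female of batch 1 (17.5 to 23.2 in its other sections) and 36.3 in section 1 of the female of batch 2 (18.5 to 19.98).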

How the results depend on the processing

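The 4 specimens and the low depth of class A limit these results, and the causes of the changes below were not tested. With sections as samples and each section as a replicate block, class A against class B gave 2184 calls, of which 830 were higher and 1354 lower, and specimen sums with no replicate block gave 388. The count was 2577 with no filter, 2575 with edgeR's own filter, 772 at the 98th percentile and 179 with *TAGLN* held out. Single batches gave 2719 (batch 1), 129 (batch 2) and 51 (batch 2 with drawn class B), and leaving out a specimen or section gave 387 to 1612. The difference between batches gave 37 calls with the replicate block, 1 with DESeq2, 14 with no filter, 6 at the 98th percentile, 36 with drawn class B and 0 to 6 with a section left out. Between sexes it gave 2 with no filter and 0 to 0 with a section left out.

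Within class A, the batch comparison gave 356 with the section number as a replicate block, 28 with DESeq2, 125 with no filter and 7 to 138 with a section left out. Sections left out that moved it by over 1.5 times were, for the female of batch 1, section 1 (126) and section 3 (131). For the male of batch 1 they were sections 1 (21), 2 (138) and 3 (117), for the female of batch 2 sections 2 (7), 3 (16) and 4 (117), and for the male of batch 2 section 2 (16). The sex comparison gave 5, 4 with no filter, and 0 to 7. Section numbers did not pair the sections: 21 same-numbered pairs from different specimens had a median correlation of 0.033 (2 above 0.1), other pairs -0.008, and 5 of 15 sections correlated best with their own number.

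Grouped against isolated spots gave 6 calls with DESeq2, 11 with no filter and 0 to 41 with a specimen left out. Class A against endothelium-rich spots gave 62 with DESeq2, 85 at the 98th percentile and 61 to 194, and against fibroblast-rich spots 11, 41 and 25 to 88. Over 69 genes named against class B, 2360 of 2583 alternative values kept direction and call. Many of these alternatives left out a single section. By gene, 23 of the 69 kept both in every alternative in which they were tested, and 61 never reversed. Reversed against drawn class B, in all specimens, batch 1 and batch 2, were *PRX* (-0.39, -0.28, -0.66), *PMP22* (-0.26, -0.18, -0.38), *MAL* (-0.21, -0.12, -0.63) and *SPARC* (-0.12, -0.013, -0.24). *APOD* was -0.009 and, in batch 1, -0.52, *CSF1R* -0.015 in batch 1, and *RGS4* 0.068 in batch 2. *MCAM* was -0.17 in batch 2 alone and -0.001 in batch 2 alone with drawn spots. Position kept its direction, with 20.1 to 29.5 points for neighbours and 26.8 to 32.3 for the margin without a specimen. With the score taken on spots thinned to 500 UMIs, which put 1617 spots in class A, these differences were smaller, at 18.55 and 18.99 points.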
